A study of Mus musculus with 15 samples.

Results

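Regulatory T cells are a CD4+ T cell lineage that restrains other T cells. The genes described here are 9 genes listed for this lineage: Foxp3, Ikzf2, Ikzf4, Ctla4, Tnfrsf18, Lrrc32, Il10, Ebi3 and Gpr83. They were picked by mouse gene symbol with earlier results of these data known, by a rule that used no measured value, and all 9 were found among the 55421 genes of the count tables. All 9 also passed the filter on low counts in every comparison. The question asked of them was how much of each transcript CD4+ T cells carried after transfer as naive cells, with and without the catalytic α1 subunit of AMP-activated protein kinase (AMPKα1, gene Prkaa1), in spleen and in the mesenteric lymph nodes that drain the gut (mLN).

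In the study, naive CD4+CD25-CD44-CD62L+ T cells of WT or KO donors were injected intraperitoneally into Rag2-/- recipients, which have no T or B cells of their own. WT donors were PRKAA1fl/fl and KO donors were CD4-Cre PRKAA1fl/fl, so that both genotypes carried the floxed alleles and Cre under the Cd4 promoter was the difference, and Cre acts in all T cells that pass through Cd4 expression in the thymus. The strain was C57BL/6, and the mice were used at an age of 6 to 8 weeks. After 6 weeks CD4+ T cells were sorted and their RNA was sequenced from WT spleen (n = 4), KO spleen (n = 4), WT mLN (n = 3) and KO mLN (n = 4), 15 libraries in all, each from recipients of transferred cells.

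Foxp3 is the transcription factor that defines the regulatory T cell lineage, and it can be present from the thymus or be induced in peripheral CD4+ T cells by antigen with IL-2 and TGF-β. Foxp3+ cells carry the receptors CTLA-4 and GITR on their surface, activate latent TGF-β through the docking protein GARP and secrete cytokines such as IL-10, and in the transfer model of colitis their scarcity among the injected cells is what lets inflammation develop. The CD25- sort removes most cells that already are regulatory T cells. The libraries do not tell cells that carried Foxp3 before transfer from cells that switched it on afterwards, and in RNA of a whole sorted population fewer cells of a type and less RNA per cell cannot be told apart. Nor do they show which of the sorted cells carried a transcript, so reads of the other members need not come from Foxp3+ cells.

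The stretches of genome before the starts of Foxp3, Ctla4 and Gpr83 are shown because these genes carry the results below: Foxp3 defines the lineage, Ctla4 was the member that passed the test between genotypes, and Gpr83 had the largest difference between organs in both genotypes. Each line holds the 250 bases before the start on the + strand of GRCm38.p6, from RefSeq, at chrX:7579426-7579675 for Foxp3, chr1:60908775-60909024 for Ctla4 and chr9:14859960-14860209 for Gpr83. The start is that of the RefSeq entry, and for Foxp3 and Ctla4 it lies downstream of the first base of the GENCODE gene given below, so that these 2 stretches fall inside the GENCODE gene. Capitals mark the core of the NFAT motif, a factor of T cell activation, GGAAA or its reverse complement TTTCC.
Foxp3: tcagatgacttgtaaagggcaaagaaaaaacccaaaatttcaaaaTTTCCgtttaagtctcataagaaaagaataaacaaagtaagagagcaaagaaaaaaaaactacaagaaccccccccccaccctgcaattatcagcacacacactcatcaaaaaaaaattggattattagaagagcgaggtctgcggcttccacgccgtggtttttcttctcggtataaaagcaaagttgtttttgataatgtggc
Ctla4: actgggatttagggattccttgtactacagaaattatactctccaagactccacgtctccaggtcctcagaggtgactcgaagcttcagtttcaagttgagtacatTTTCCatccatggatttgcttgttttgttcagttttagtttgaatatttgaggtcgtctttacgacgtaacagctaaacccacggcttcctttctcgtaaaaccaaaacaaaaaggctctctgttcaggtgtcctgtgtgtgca
Gpr83: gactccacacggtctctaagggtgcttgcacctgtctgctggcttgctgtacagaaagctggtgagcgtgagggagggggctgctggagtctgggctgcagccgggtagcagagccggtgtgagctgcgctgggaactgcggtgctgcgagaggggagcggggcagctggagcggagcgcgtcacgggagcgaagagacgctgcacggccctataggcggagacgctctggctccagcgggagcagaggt
RefSeq windows of 300 bases, which reach 50 bases past the start, were at hand for 5 of the 9 members, Foxp3 with 2 of them. Searched on both strands, the NFAT core was in the windows of Foxp3, Ctla4, Tnfrsf18 and Ebi3 and not in that of Gpr83, and it was in 61.3% of all 32851 windows. The paired STAT motif TTCNNNGAA, which is its own reverse complement and was in 8.3% of all windows, was in 1 Foxp3 window and in that of Tnfrsf18, and in the second Foxp3 window it overlapped the NFAT core. Neither the RUNX core TGTGGT (16.8% of all windows, both strands) nor the forkhead motif TGTTTAC (3.65%) was in any window of a member.

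Between 9363940 and 11283439 reads fell on genes per library (median 10545309), and levels are given in CPM, the gene's reads scaled to a fixed total of reads on genes. Prkaa1 lay between 46.3 and 60.9 CPM in the 7 WT libraries and between 18.4 and 32.2 CPM in the 8 KO libraries, so the targeted gene followed the labels in every library. By edgeR it was lower in KO by log2 fold changes of -1.33 (SE 0.08, adjusted p = 7.63e-05) in spleen and -0.95 (SE 0.16, adjusted p = 0.0372) in mLN. Prkaa1 was also higher in KO mLN than in KO spleen (0.46, SE 0.14, adjusted p = 0.0361), but not called between organs in WT (0.10, SE 0.10, adjusted p = 0.530). Its genotype by organ interaction was not called (0.37, SE 0.18). The 12 T cell identity genes summed to between 8868 and 11739 CPM per library, and the B cell gene Ms4a1 had at most 4 reads. Lyz2, a gene of monocytes and macrophages, had 28.5 to 224.6 CPM. Csf1r of the same cells had 13.8 to 24.6 CPM in WT spleen and 25.1 to 55.2 in KO spleen. Of 9 tested myeloid and dendritic genes, edgeR called 0 between genotypes in spleen, and DESeq2 called 3 higher in KO (Cd68, Adgre1 and Csf1r). In mLN edgeR called 0 of 7 and DESeq2 called 1, higher. Of the 4 MHC class II genes edgeR called 0 in either organ, and DESeq2 called 3 higher in KO spleen and 0 in mLN. The summed MHC class II genes were at 199 to 404 CPM in WT spleen, 357 to 703 in KO spleen, 211 to 487 in WT mLN and 342 to 935 in KO mLN, and the summed red cell genes at 89.9 to 1837, 40.2 to 104, 20.8 to 788 and 17.5 to 70.6 CPM in the same order. Of single marker genes of other cells, Acta2 of smooth muscle was called higher in KO in spleen (0.66 to 0.75 CPM in WT, 1.41 to 3.26 in KO) and in mLN (0.70 to 0.83 and 3.67 to 7.49), and Pax5 of B cells in mLN (at most 2 reads in WT, 18 to 48 in KO). Their part in the results below was not tested.

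**Figure D1:**
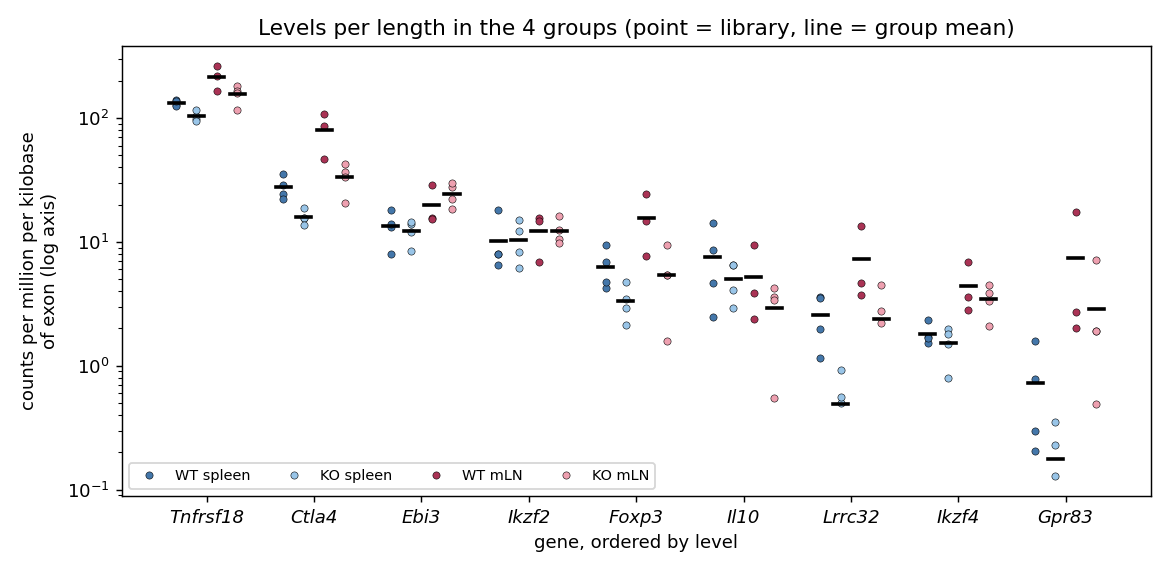
CPM per kilobase of exon (log axis) of the 9 genes in the 4 groups; each point is a library and each line a group mean. Tnfrsf18 lay above the other 8 genes in each group, with Ctla4 second and Ebi3 next, and 3 values of 0 (Lrrc32 in both KO replicate 4 libraries, Gpr83 in KO spleen replicate 4) are not drawn on the log axis.

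Per kilobase of exon, the transcripts fell in a similar order in the 4 groups. Tnfrsf18 was the highest, with a mean of 133 ± 6.39 CPM per kilobase (SD, n = 4) in WT spleen and 215 ± 47.8 (n = 3) in WT mLN. Ctla4 followed with 27.7 ± 5.90 in WT spleen and 80.3 ± 30.9 in WT mLN, and Ebi3 came next with 13.4 ± 4.17 in WT spleen and 24.5 ± 5.09 in KO mLN. Foxp3 held rank 6 in WT spleen (6.31 ± 2.35) and in KO spleen (3.32 ± 1.10), rank 4 in WT mLN (15.6 ± 8.44) and rank 5 in KO mLN (5.45 ± 3.18). Gpr83 was the lowest of the 9 in spleen, at 0.721 ± 0.635 in WT and 0.177 ± 0.149 in KO. For a given gene, the 4 groups in order of their means mostly overlapped with the next in that order. The exceptions were Ctla4, where KO spleen lay below WT spleen and KO mLN below WT mLN, Tnfrsf18, where KO spleen lay below WT spleen, and Lrrc32, where WT spleen lay below WT mLN.

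**Figure D2:**
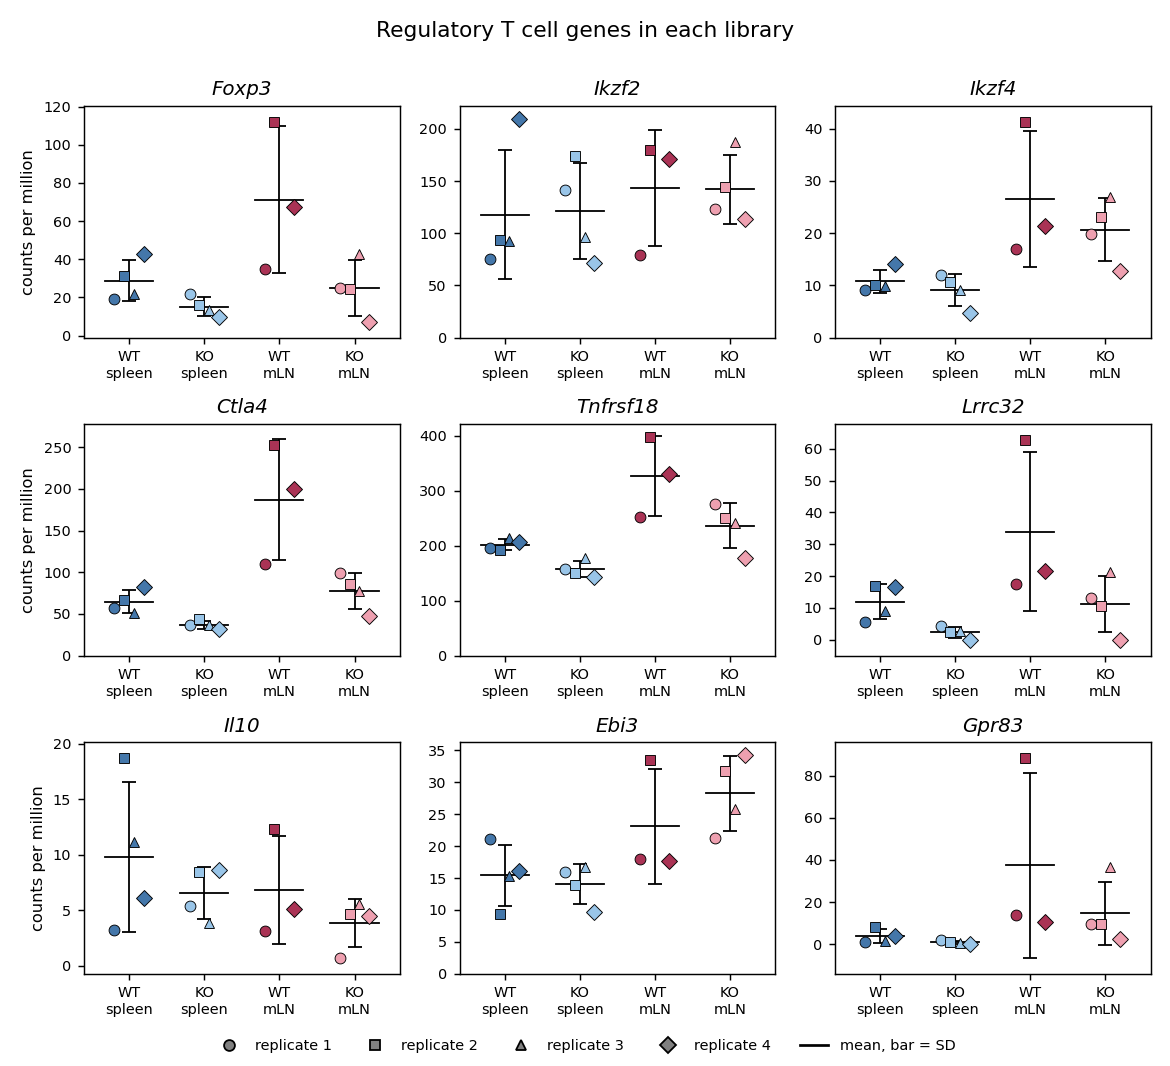
CPM of each gene in each library, by group (WT spleen, KO spleen, WT mLN, KO mLN); the symbol gives the replicate number, the line the group mean and the bar the SD. Ctla4 lies lower in each KO library than in each WT library of the same organ, and KO replicate 4 (diamonds) is the lowest KO library in both organs for 7 of the 9 genes.

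Ctla4 encodes CTLA-4, the inhibitory receptor that takes CD80 and CD86 from the costimulatory receptor CD28 (chr1:60887000-60915832, + strand of GRCm38, protein coding, with no exon shared with another gene). In WT spleen it had 56.6, 67.2, 51.5 and 82.6 CPM in replicates 1 to 4, and in KO spleen 36.2, 43.7, 36.6 and 32.1 CPM. Each KO library lay below each WT library of the spleen. The log2 fold change was -0.78 (SE 0.14, adjusted p = 0.0391, edgeR quasi-likelihood test over 14254 genes), which made Ctla4 the only member called in the spleen, where 0.751% of the genes tested were called lower in KO and 0.547% higher. In mLN, WT replicates 1, 2 and 4 had 109.7, 251.9 and 199.7 CPM, against 99.1, 86.0, 77.9 and 47.7 CPM in KO replicates 1 to 4. The groups again did not overlap, and the log2 fold change was -1.27 (SE 0.27), but with an adjusted p of 0.0704 by edgeR it did not pass. In mLN 0 of the 9 members were called by edgeR, against 0.292% of 14359 genes called lower in KO and 0.348% higher. At an unadjusted p under 0.05 there were 3 members (Ctla4, Foxp3 and Tnfrsf18), beside 2251 of 14359 genes in the edgeR fit with RLE scaling. DESeq2 called Ctla4 alone of the members, beside 588 of 14359 genes. The call in spleen was lost with all 15 samples in 1 fit (adjusted p = 0.138), with the replicate number as a block (0.0997) and in 6 of the 8 fits that left out 1 library, all but those without WT spleen replicate 3 or 4. The data did not show that the numbers pair WT with KO samples (values below).

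**Figure D3:**
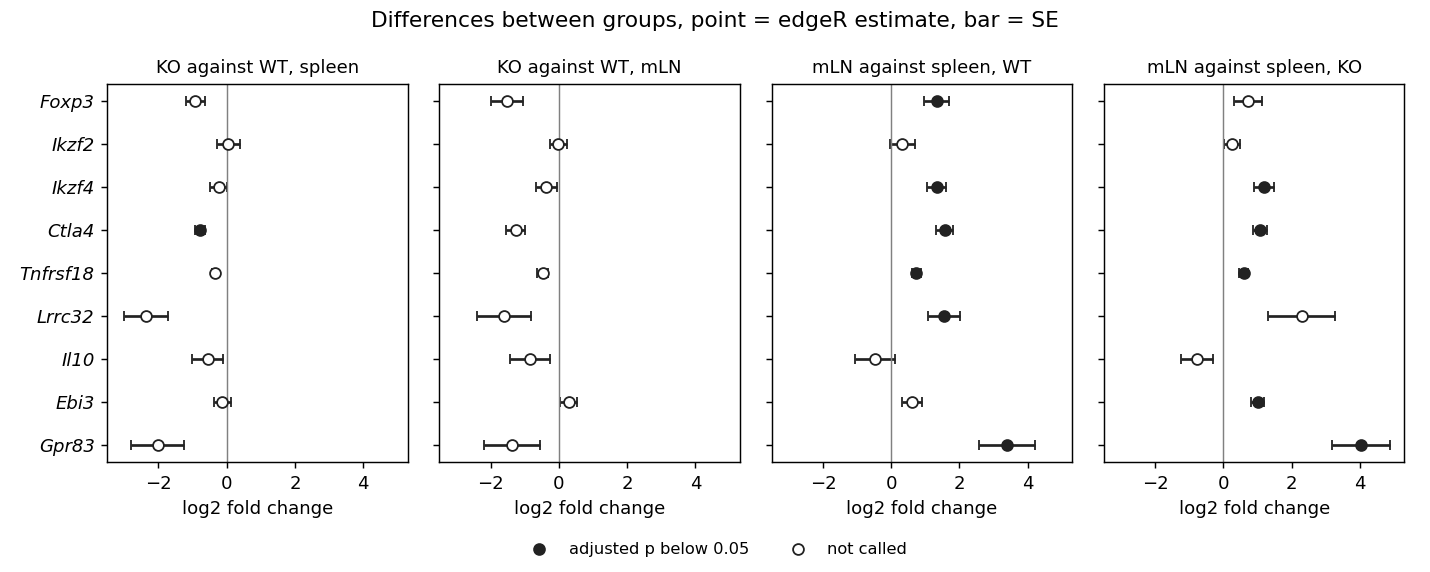
Log2 fold change of the 9 genes in the 4 comparisons; points are edgeR estimates, bars are SE, and filled points passed an adjusted p of 0.05. Between genotypes only Ctla4 in spleen is filled, while between organs 6 points are filled in WT and 5 in KO, all to the right of 0.

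Foxp3 itself (chrX:7573644-7595245, + strand) had 19.5, 31.4, 21.7 and 43.0 CPM in WT spleen replicates 1 to 4 and 21.7, 15.9, 13.5 and 9.75 CPM in KO spleen. KO replicate 1 lay within the WT range, and the other 3 KO libraries lay below it. In mLN the WT libraries had 34.9, 112 and 67.2 CPM, and the KO libraries 24.9, 24.5, 43.0 and 7.31 CPM, with KO replicate 3 above the lowest WT library. The log2 fold changes of -0.91 (SE 0.27, adjusted p = 0.108) in spleen and -1.52 (SE 0.47, adjusted p = 0.165) in mLN did not pass by edgeR, while DESeq2 called Foxp3 in spleen (adjusted p = 0.0205). Exons of Foxp3 share bases with Flicr on the same strand, with 3 to 43 reads per library, and with Ccdc22, Ppp1r3f and Gm36995 on the other strand, of which Ccdc22 was the highest with 19 to 80 reads, against 82 to 1131 reads on Foxp3.

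Ikzf2 and Ikzf4 encode Helios and Eos, zinc finger factors of the Ikaros family that many regulatory T cells carry. Ikzf2 (chr1:69531214-69687245, - strand) had 75.6, 93.1, 92.2 and 209 CPM in WT spleen and 142, 174, 96.6 and 71.6 CPM in KO spleen. In mLN it had 79.5, 179.7 and 171 CPM in WT and 123, 144, 188 and 113 CPM in KO. The genotypes overlapped throughout, with log2 fold changes of 0.05 (SE 0.33) in spleen and -0.02 (SE 0.25) in mLN, neither called. Ikzf4 (chr10:128630843-128645991, - strand) had 9.11 to 14.0 CPM in WT spleen and 4.79 to 11.97 CPM in KO spleen. Its log2 fold changes of -0.24 (SE 0.25) and -0.37 (SE 0.31) were not called either. Each shares exon bases with a gene on the other strand, Ikzf2 with Gm29114 (7 to 46 reads) and Ikzf4 with Gm26876 (0 to 3 reads).

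Tnfrsf18 encodes the costimulatory receptor GITR (chr4:156026164-156028895, + strand). It had 196, 192, 213 and 207 CPM in WT spleen and 157, 150.1, 177 and 144 CPM in KO spleen, so that the groups did not overlap. The log2 fold change was the most precise of the 9, at -0.35 (SE 0.08), with an adjusted p of 0.0641 by edgeR and 0.00528 by DESeq2. In mLN, 253, 398 and 331 CPM in WT stood against 276, 249.7, 242 and 178 CPM in KO, and KO replicate 1 lay above WT replicate 1 (log2 fold change -0.48, SE 0.17, adjusted p = 0.207). Exons of Tnfrsf18 overlap the antisense gene Gm16008, which had 584 to 1429 reads per library and log2 fold changes of -0.42 (SE 0.10, adjusted p = 0.0637) in spleen and -0.51 (SE 0.14, adjusted p = 0.122) in mLN. The strand setting of the counting is not given in the sources used here, so reads of the 2 genes may not have been kept apart.

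Lrrc32 encodes GARP, which holds latent TGF-β on the cell surface (chr7:98489283-98502181, + strand, with no exon shared with another gene). It had 52, 157, 97 and 164 reads (5.44, 16.8, 9.20 and 16.4 CPM) in WT spleen and 41, 26, 28 and 0 reads (4.31, 2.32, 2.64 and 0 CPM) in KO spleen. All KO spleen libraries lay below all WT spleen libraries, yet the log2 fold change of -2.37 (SE 0.64) did not pass (adjusted p = 0.0875). In mLN the WT libraries had 189, 634 and 218 reads and the KO libraries 145, 114, 214 and 0 reads, with a log2 fold change of -1.61 (SE 0.80, adjusted p = 0.372) that was -0.83 without WT mLN replicate 2. Groups that did not overlap, lower in KO, were seen for 3 of the 9 members in spleen (Ctla4, Tnfrsf18 and Lrrc32) beside 6.31% of all genes tested, and for 1 of the 9 in mLN (Ctla4) beside 6.94%.

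Gpr83, a G protein-coupled receptor abundant in regulatory T cells (chr9:14860210-14870789, + strand, with no exon shared), had few reads in spleen, 10, 76, 16 and 40 in WT and 17, 13, 7 and 0 in KO. In mLN it had 149, 894 and 104 reads in WT and 107, 105, 369 and 28 reads in KO. A single library dominates each mLN group, WT replicate 2 at 88.4 CPM and KO replicate 3 at 36.6 CPM. The log2 fold changes between genotypes, -2.02 (SE 0.77, adjusted p = 0.180) in spleen and -1.37 (SE 0.81, adjusted p = 0.463) in mLN, were not called, and without WT mLN replicate 2 the value in mLN was 0.24.

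Neither cytokine gene was called between genotypes, and at this depth and spread no difference was detectable. Il10, the gene of the inhibitory cytokine IL-10 (chr1:131019845-131024974, + strand, with no exon shared), had 31, 175, 118 and 61 reads in WT spleen, 51, 95, 41 and 97 in KO spleen, 34, 125 and 51 in WT mLN and 8, 51, 56 and 50 in KO mLN. The ranges overlapped in each organ, and the log2 fold changes were -0.55 (SE 0.46, adjusted p = 0.537) and -0.84 (SE 0.59, adjusted p = 0.548). Ebi3 encodes the chain shared by the cytokines IL-27 and IL-35 (chr17:55952640-55957022, + strand). It had 21.04, 9.29, 15.4 and 16.0 CPM in WT spleen, 16.0, 13.9, 16.7 and 9.75 in KO spleen, 18.0, 33.5 and 17.7 in WT mLN and 21.3, 31.8, 25.8 and 34.2 in KO mLN. The log2 fold changes between genotypes were -0.12 (SE 0.24) in spleen and 0.28 (SE 0.24) in mLN. The partner chain of IL-35, Il12a, had at most 4 reads in any library.

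Over the 9 members the median log2 fold change of KO against WT was -0.55 in spleen and -0.84 in mLN, beside -0.004 for all genes tested in each organ. The mLN median rested on WT mLN replicate 2, without which it was -0.12. Il10 was the gene at the median in both organs. No p is attached to the medians, since the members vary together across libraries and were listed with earlier results known.

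Between organs more members were called than between genotypes, and each of them was higher in mLN. In WT cells 6 of the 9 members were higher in mLN than in spleen by edgeR (5 by DESeq2), and none was lower by either tool or at an unadjusted p under 0.05, beside 9.70% of 14515 genes called higher and 10.8% called lower. Gpr83 rose most, by 3.39 on the log2 scale (SE 0.83, adjusted p = 0.0202, edgeR, with 1.78 and no call without WT mLN replicate 2 and 4.10 without WT spleen replicate 2), followed by Ctla4 at 1.57 (SE 0.25, adjusted p = 0.00305) and Lrrc32 at 1.54 (SE 0.48, adjusted p = 0.0479). Foxp3 rose by 1.34 (SE 0.36, adjusted p = 0.03), from a mean of 28.9 ± 10.7 CPM (SD, n = 4) to 71.3 ± 38.6 CPM (n = 3). Ikzf4 rose by 1.33 (SE 0.29, adjusted p = 0.0122), to 16.9, 41.3 and 21.4 CPM in mLN. Tnfrsf18 rose by 0.73 (SE 0.13, adjusted p = 0.00566). The log2 fold changes of Ebi3 (0.61, SE 0.30), Ikzf2 (0.33, SE 0.37) and Il10 (-0.48, SE 0.59) were not called. The groups did not overlap for Ikzf4, Ctla4, Tnfrsf18, Lrrc32 and Gpr83, 5 of the 9 members, beside 13.3% of all genes, whereas Foxp3 in WT mLN replicate 1 lay below WT spleen replicate 4.

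Several WT calls depended on replicate 2, which was the highest WT mLN library for all 9 members. The share of all genes highest there in mLN alone was not counted. In both organs replicate 2 was the highest WT library for 3 members (Lrrc32, Il10 and Gpr83), beside 14.4% of 14089 genes with at least 10 reads in every library of some group. Without replicate 2 in mLN, 3 of the 9 were called (Ikzf4, Ctla4 and Tnfrsf18), and Foxp3 gave 0.87 (adjusted p = 0.118). Without replicate 2 in both organs, 2 were called (Ctla4 and Gpr83), while leaving out WT spleen replicate 1 gave 3 calls, and leaving out WT spleen replicate 2 or 3 or WT mLN replicate 4 gave 4. Over all genes these fits called fewer as well, 1145 without replicate 2 in both organs and 1816 to 2780 with 1 library left out, against 2980 in the main fit. Ctla4 was called in WT in each of these fits.

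In KO cells 5 of the 9 members were higher in mLN by edgeR and by DESeq2, and none lower by either or at an unadjusted p under 0.05, beside 11.4% of 14240 genes called higher and 13.9% called lower. Gpr83 rose by 4.03 (SE 0.85, adjusted p = 0.00512, and by 3.04 without KO mLN replicate 3), Ikzf4 by 1.19 (SE 0.28, adjusted p = 0.00991), Ctla4 by 1.07 (SE 0.19, adjusted p = 0.00210) and Tnfrsf18 by 0.59 (SE 0.13, adjusted p = 0.00544). Ikzf4 had 19.9, 23.04, 26.95 and 12.7 CPM in KO mLN, all above KO spleen. Ebi3 rose by 1.01 (SE 0.19, adjusted p = 0.00284), from 14.1 ± 3.11 to 28.3 ± 5.87 CPM (SD, n = 4 each). These 5 genes were also the members whose organs did not overlap, beside 13.3% of all genes. Foxp3 went from 15.2 ± 5.03 to 24.9 ± 14.6 CPM and was not called (log2 fold change 0.72, SE 0.41, adjusted p = 0.227), and Lrrc32 (2.29, SE 0.98, adjusted p = 0.112), Ikzf2 (0.24, SE 0.23) and Il10 (-0.78, SE 0.46) were not called either. With KO replicate 4 left out in both organs, 7 members were called, Foxp3 (0.87, adjusted p = 0.0392) and Lrrc32 (2.29, adjusted p = 0.00207) among them. That fit called 2792 genes in all, against 3602 in the main fit.

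The overlapping transcripts and the markers of other cells moved between organs as well. Gm16008, antisense to Tnfrsf18, was higher in mLN by 0.67 in WT (SE 0.11, adjusted p = 0.00384) and by 0.56 in KO (SE 0.12, adjusted p = 0.00617). Gm16712, antisense to Ebi3, was higher by 0.94 in KO (SE 0.21, adjusted p = 0.00712), beside a WT value of 0.39 (SE 0.24). Of the 9 tested genes of myeloid and dendritic cells, which also make Ebi3 and Il10, 3 were called higher and 4 lower in KO mLN than in KO spleen, with Itgax rising from 1.79 to 5.99 CPM in KO spleen to 5.80 to 10.1 CPM in KO mLN and Lyz2 at 42.05 to 57.2 CPM in KO mLN. Of the 4 MHC class II genes, 2 were called higher in WT mLN, H2-Eb1 (1.61, SE 0.29, adjusted p = 0.00568) and H2-Aa (1.26, SE 0.31, adjusted p = 0.0213), with a list median of 1.13, and 0 in KO mLN by edgeR or DESeq2 or at an unadjusted p under 0.05. Their part in the results between organs was not tested. Ighm of plasma and B cells was higher in mLN in both genotypes, and Cd8a in KO (2 to 18 reads in spleen, 167 to 258 in mLN). Among T cell genes, Ccr7, the receptor that brings T cells into lymph nodes, was higher in mLN by 1.77 in WT (SE 0.45, adjusted p = 0.0234) and by 1.47 in KO (SE 0.24, adjusted p = 0.00128), and Lef1, a factor of naive T cells, by 0.70 (SE 0.19, adjusted p = 0.0313) and 0.66 (SE 0.12, adjusted p = 0.00256).

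Whether the genotype difference itself differed between the organs was tested as an interaction over all 15 libraries. By edgeR 0% of 15438 genes were called (0 genes, with 652 at an unadjusted p under 0.05, while DESeq2 called 4), and so 0 of the 9 members. The smallest unadjusted p among the members was 0.163, for Ctla4, with an interaction of -0.49 on the log2 scale (SE 0.34). DESeq2 called 0 members as well. For Foxp3 the interaction was -0.61 (SE 0.61), and the genotype differences in the 2 organs were not resolved from each other for any member.

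**Figure D4:**
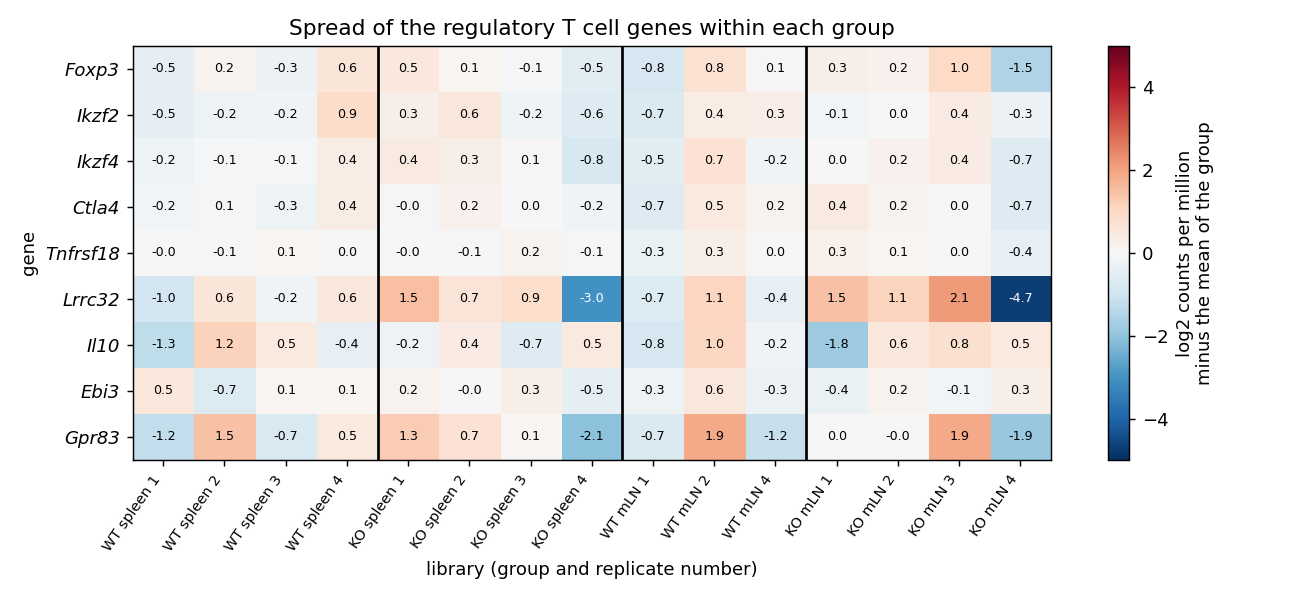
Log2 CPM of the 9 genes in each library minus the mean of its group, with red above and blue below the group mean and the value printed in each cell. The column of KO mLN replicate 4 is blue for 7 genes and that of WT mLN replicate 2 is red for all 9.

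Within a group the members varied together. KO replicate 4 was the lowest KO library in both organs for 7 of the 9 members (Foxp3, Ikzf2, Ikzf4, Ctla4, Tnfrsf18, Lrrc32 and Gpr83), where 10.6% of 14089 genes with at least 10 reads in every library of some group were lowest there. In WT, replicate 1 was lowest in both organs for 5 members (Foxp3, Ikzf2, Ikzf4, Lrrc32 and Il10), beside 11.8% of those genes. Over the 15 libraries the deviation of Foxp3 from its group mean (log2 CPM, prior count 2) followed that of Lrrc32 (Pearson r = 0.88, Spearman rho = 0.85), Ikzf4 (0.88 and 0.89), Gpr83 (0.84 and 0.83), Ctla4 (0.82 and 0.77), Ikzf2 (0.73 and 0.80) and Tnfrsf18 (0.69 and 0.53). With the 2 libraries farthest from the Foxp3 median left out (KO mLN replicate 4 and WT mLN replicate 1), r was 0.80 for Lrrc32, 0.84 for Ikzf4, 0.85 for Gpr83, 0.61 for Ctla4, 0.75 for Ikzf2 and 0.28 for Tnfrsf18, so the last rested on those libraries. Il10 (r = 0.16) and Ebi3 (r = 0.0002) did not vary with Foxp3. These are descriptions over libraries that share depth, sort and, perhaps, mice between organs.

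Among 15437 other genes, those most like Foxp3 by this measure were Dnah7a (r = 0.97), Neb (0.95), Gm9752 (0.95), Apol9a (0.94) and Ncmap (0.93), with Lrrc32 at rank 27 and Ikzf4 at rank 30. Those most like Il10 were Snhg12 (0.91), Ankrd10 (0.89), Ccnl2 (0.88), Gmip (0.88) and 9530085L11Rik (0.87), and no other member came closer to Il10 than Gpr83 (0.31). Without the 2 libraries farthest from each median, the 5 genes had r between 0.85 and 0.95 for Foxp3 and between 0.81 and 0.85 for Il10. These genes were picked by their r over the same libraries, so the values do not test the likeness.

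Lrrc32 in KO replicate 4 stood out further. Its count was 0 in spleen and 0 in mLN, where the other 13 libraries had at least 26 reads, a count that allows up to 0.266 and 0.268 CPM (3 reads of the library, counting error only). Whether reads of Lrrc32 were lost or assigned to no gene in these 2 libraries was not tested, and the Lrrc32 fold changes above include them. Of all 55421 genes, Lrrc32 was the only gene at 0 in both libraries of KO replicate 4 with 20 or more reads in each of the other 13, and no gene met this for any other replicate with a library in both organs. This pattern was looked for after the zeros were seen. Foxp3 was not absent there, with 110 and 82 reads.

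The genes around these members were read from lists of known parts of the pathway. Among the 15 genes that feed Foxp3 induction through IL-2 and TGF-β, Il2ra, the α chain of the IL-2 receptor (CD25), fell in KO spleen (log2 fold change -1.16, SE 0.16, adjusted p = 0.0123), and Tgfb1, the TGF-β1 gene, rose (0.51, SE 0.09, adjusted p = 0.0391). In mLN none passed by edgeR or DESeq2, with 8 at an unadjusted p under 0.05 (edgeR), 2 higher and 6 lower in KO. Il2ra, not called there, had 134.5 to 322.2 CPM in WT mLN and 32.7 to 112.8 CPM in KO mLN. Of 21 genes of Foxp3 transcription and stability and 3 further Ikaros genes none was called between genotypes by edgeR in either organ. At an unadjusted p under 0.05 there were 8 of the 21 in each organ, 7 of them higher in KO, and DESeq2 called 6 in spleen and 3 in mLN. Of the Ikaros genes 0 in spleen and 1 in mLN had an unadjusted p under 0.05, and DESeq2 called 0. Over all genes tested, 2924 of 14254 in spleen and 2251 of 14359 in mLN had an unadjusted p under 0.05 (edgeR with RLE scaling). DESeq2 called 840 of the 14254 and 588 of the 14359. Among 22 further surface and signature genes, Il1rl1, the IL-33 receptor, fell in KO spleen (-1.57, SE 0.32, adjusted p = 0.0485) and none was called in mLN by edgeR, where 11 had an unadjusted p under 0.05 and DESeq2 called 3. Of 14 further suppressor effectors, Fgl2, a secreted inhibitor of dendritic cells, fell in KO mLN (-0.83, SE 0.14, adjusted p = 0.0362), and in spleen edgeR called 0, with 3 lower at an unadjusted p under 0.05 and 2 by DESeq2. Of 13 genes of Il10 regulation and Tr1 cells, Eomes, a factor of cytotoxic and Tr1 cells, rose in KO in both organs (0.93, SE 0.17, adjusted p = 0.0444 in spleen and 1.13, SE 0.21, adjusted p = 0.0422 in mLN), and of 7 CTLA-4 partners and trafficking genes none was called by edgeR in either organ, while 2 had an unadjusted p under 0.05 in each and DESeq2 called 1 in each (Trat1, lower). The list medians were -0.31 and -0.43 for the surface and signature genes in spleen and mLN, and within 0.17 of 0 for the other lists.

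Between organs the surface and signature genes had the list median farthest from 0 among the lists of the pathway. In WT, 6 of the 21 tested were higher in mLN and 1 lower, beside 9.70% and 10.8% of all genes, with Icos at 1.21 (SE 0.15), Il1r2 at 1.32 (SE 0.20) and Penk at 1.49 (SE 0.27). In KO, 10 of 21 were higher and 2 lower, beside 11.4% and 13.9% of all genes, with Icos at 1.28 (SE 0.10), Tigit at 0.61 (SE 0.07) and Il1r2 at 1.78 (SE 0.28), all with adjusted p of at most 0.00542 by edgeR. The list median was 0.60 in WT and 0.55 in KO, beside 1.33 and 1.01 for the 9 members and 0.00 and 0.01 for all genes tested. Of the 15 induction genes 1 was higher and 5 lower in WT, and 0 higher and 7 lower in KO, with a list median of -0.24 in both, led, with adjusted p from 6.09e-06 to 0.00746, by Tgfb1 (-1.55, SE 0.19 in WT and -2.13, SE 0.16 in KO), Jak3 (-0.88, SE 0.15 and -0.98, SE 0.10) and, next, Smad3 in WT (-0.63, SE 0.12) and Tgfbr2 in KO (-0.49, SE 0.06). The exception in WT was Il2ra, which rose in mLN (0.90, SE 0.27, adjusted p = 0.0438).

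Of the 21 genes of Foxp3 transcription and stability, 2 were higher and 7 lower in WT mLN and 2 higher and 10 lower in KO mLN, where the shares over all genes were 9.70% higher and 10.8% lower in WT and 11.4% and 13.9% in KO. Nfatc2, an NFAT factor, fell by 1.37 in WT (SE 0.10) and by 1.26 in KO (SE 0.07), and Tet3, which oxidises methylated cytosine, by 1.07 (SE 0.11) and 1.10 (SE 0.09). Next came Nfatc1 in WT (-0.71, SE 0.09) and Rel in KO (-0.99, SE 0.10). Among the suppressor effectors Nt5e, the ectoenzyme CD73, rose in both genotypes (1.26, SE 0.25 in WT and 1.27, SE 0.20 in KO) while Furin fell (-1.62, SE 0.46 and -1.62, SE 0.22), and in KO Itgav fell as well (-0.56, SE 0.09). Maf, a factor that drives Il10, fell in KO mLN (-0.65, SE 0.09) and Batf rose (0.38, SE 0.12), while in WT no gene of that list was called by edgeR, 2 had an unadjusted p under 0.05 and DESeq2 called Irf4. Ikzf1, the founding Ikaros gene, fell in both genotypes (-0.36, SE 0.08 and -0.30, SE 0.07), and Lrba, which protects CTLA-4 from degradation, fell too (-0.93, SE 0.13 and -0.60, SE 0.13), with Ap2m1 in KO (-0.20, SE 0.06). The adjusted p of these genes by edgeR lay between 1.08e-06 (Nfatc2 in KO) and 0.038 (Batf in KO).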

How the data were processed

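RNA of sorted CD4+ T cells from 15 samples was sequenced by the authors as single-end reads after a low-input library preparation, aligned to GRCm38 with STAR 2.6.1a in 2-pass mode with GENCODE annotation and counted per gene by STAR. The deposited files hold these raw counts. Multimapping reads are not in the counts, and rows that name no gene (67.4% to 70.3% of all reads, mostly unique alignments on no gene) were left out. Symbols and coordinates came from GENCODE M21 (55240 of 55421 genes). CPM used the reads on genes. Groups and replicate numbers came from the labels, which do not say that a number marks a mouse, so p-values measure the spread between these samples. WT mLN replicate 3 was not analysed here, nor were T cell receptor or flow cytometry data.

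Each pair of groups was fitted by edgeR 4.0.16 in R 4.3.3 (filterByExpr, TMM, quasi-likelihood test, Benjamini-Hochberg over all genes tested, called at an adjusted p below 0.05), and the interaction over all 15 samples. The standard error is the log2 fold change divided by the root of F. The procedure was tested on simulated counts. DESeq2 1.42.0, other scalings and filters, left-out libraries and the replicate block were alternatives. Whether replicate numbers pair the organs was checked by the correlation of deviations from group means over 15438 genes: in WT it was 0.258, 0.243 and 0.291 for the pairs with the same number, all over 0.1, so the numbers were taken to pair the WT samples, from the data and not from the labels. In that paired fit the replicate block left the same 6 members called, with a median log2 fold change over the 9 of 1.17, against 1.33 without it. The values between organs and of the interaction given in the Results come from fits without the block. In KO the values were 0.0409, 0.170, 0.0258 and 0.259. Between genotypes the same number gave -0.107, 0.0205, 0.146 and -0.210 in spleen and 0.00337, 0.000836 and -0.0531 in mLN. In each of these cases another number gave a higher value, so the data did not show that the numbers pair WT with KO samples.

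The 9 members and the gene lists were chosen with earlier results of these data known. Beyond the members, the text names from each list and comparison the 3 called genes with the smallest p, and the 5 genes most like Foxp3 and Il10. Motifs were searched in RefSeq promoter windows with Python 3.11.15.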

Additional observations from a re-analysis of the deposited data

Results flagged for a closer look

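Ikzf2, the gene of Helios, had 209.4 CPM in WT spleen replicate 4, where the nearest other library of the group had 93.1 CPM. The gap took 0.869 of the group's range, above Dixon's 95% critical value for 4 samples. It was the only such value among 27 groups of 4 libraries (9 genes in 3 groups), where chance alone flags about 1 in 20. The same library was also the highest of its group for Foxp3 (43.0 CPM), Ikzf4 (14.0 CPM) and Ctla4 (82.6 CPM).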

How the results depend on the processing

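The number of members called depended on the processing in each comparison but the interaction, which called 0 members throughout. In spleen, 1 member (Ctla4) became 3 with DESeq2 (Foxp3, Ctla4 and Tnfrsf18), 2 with library sizes alone, 5 without the filter on low counts, and 0 with a log2 fold change limit of 1, with all 15 samples in 1 fit or with the replicate block, where Ctla4 gave -0.77 (adjusted p = 0.0997). In mLN, 0 became 1 (Ctla4) with DESeq2, with at least 10 counts in every sample and with all 15 samples in 1 fit, and 5 without the filter. The 5 of the fit without a filter were Foxp3, Ctla4, Tnfrsf18, Lrrc32 and Gpr83 in both organs, and between organs that fit called 8 in WT (Ikzf2 and Ebi3 added) and 7 in KO (Foxp3 and Lrrc32 added). Leaving out 1 library at a time gave 0 to 1 in spleen, 0 to 1 in mLN (1 without WT mLN replicate 1), 3 to 6 between organs in WT and 5 to 7 in KO (7 without KO mLN replicate 4). Leaving out WT replicate 2 in both organs, chosen after seeing the data as was leaving out KO replicate 4, gave 2. The replicate block left 6 calls in WT between organs and turned 5 into 6 in KO, with Lrrc32 added (adjusted p = 0.00121), and the block changed no other call of a member. Each KO sample's spleen library was closest to its own number in 2 of 4 cases.

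The signs that turned all belonged to differences that were not called. The Ikzf2 interaction was 0.0038 with the replicate block and 0.20 without WT replicate 2 in both organs, where the Ikzf4 interaction was 0.35 and that of Tnfrsf18 0.053. With 1 library left out, Ikzf2 ranged from -0.17 to 0.48 and Ebi3 from -0.31 to 0.061 between genotypes in spleen, and Ikzf2 from -0.31 to 0.16, Ikzf4 from -0.61 to 0.087 and Gpr83 from -2.36 to 0.24 in mLN. Il10 between organs in WT ranged from -1.20 to 0.0098. The interactions ranged from -0.50 to 0.14 for Ikzf2, -0.38 to 0.31 for Ikzf4, -0.79 to 0.43 for Il10, -0.33 to 2.25 for Gpr83 and -0.29 to 0.021 for Tnfrsf18. Over all alternatives, 650 log2 fold changes of members kept sign and side of the threshold, 35 turned sign, 25 passed it and 27 no longer did, and all 36 group levels moved by less than 1 SD with TMM scaling (factors 0.969 to 1.04). Lrrc32, Il10 and Gpr83 gave no value in some fits with at least 10 counts in every sample.

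The genes called over the whole table in spleen were 185, against 840 with DESeq2, 1422 without the filter, 85 with all samples in 1 fit, 17 with the replicate block and 12 to 324 with 1 library left out. In mLN they were 92, against 588, 913, 500, 1 and 4 to 117. Between organs in WT they were 2980, against 1816 to 2780 with 1 library left out and 1145 without WT replicate 2. In KO they were 3602, against 2631 to 3669 with 1 library left out and 2792 without KO replicate 4. The interaction called 0, against 4 with DESeq2, 112 without the filter and 3 with the replicate block. The cause of these differences was not tested. Gpr83 and Lrrc32 had as few as 0 reads in a library, and reads carry no molecular identifiers, so limits from counts cover counting error only. The strand of counting is not given in the sources used here.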
